A study of Mus musculus with 11 samples.

Results

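Erythroid genes expressed by the primitive red cells of the mouse embryo were followed array by array in pooled embryonic hearts as a readout of blood content. The genes were Alas2, Slc4a1, Gata1, Rhag, Klf1, Epor, Hba-x, Hbb-y and Hbb-bh1, a set of 9 named genes. Every probe set whose only annotated symbol was one of these names was taken. This gave 15 probe sets of the 45037 on the arrays, or 9 of the 18193 genes with a probe set of a single symbol.

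Total RNA came from pooled hearts at embryonic day 9.5, the stage at which the heart is a looping tube filled with circulating blood. A 50 ng portion of each RNA was amplified and hybridised to a one-colour oligonucleotide array. There were 11 arrays, of which 5 were labelled Gata4 flox/flox; Nkx2-5 cre/+ (CKO, n = 5), 3 were Gata4 flox/+; Nkx2-5 cre/+ (double heterozygous, n = 3) and 3 were Gata4 flox/+; Nkx2-5 +/+ (control, n = 3). Every group, the control included, carried at least 1 floxed Gata4 allele. Cre was expressed from an Nkx2-5 allele, so both Cre-bearing groups had 1 unmodified Nkx2-5 allele. The labels do not say how many hearts made a pool or which litters they came from, so the p-values measure the spread between these pools.

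Primitive erythroid cells arise in the yolk sac, enter the circulation while still nucleated and pass through the heart in large numbers at this stage. The transcription factors Gata1 and Klf1 drive their program, the receptor Epor carries the survival signal of erythropoietin, and Alas2 begins the haem synthesis that loads the embryonic globins. In bulk tissue, fewer red cells and less of these RNAs per red cell cannot be told apart.

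The sequences just before the transcription start are shown for 5 of the genes because Gata1 and Klf1 encode DNA-binding proteins. Gata1 belongs to the factors that bind GATA motifs and Klf1 binds CACCC boxes. Each run holds the 250 bases before the start annotated by RefSeq on GRCm38.p6, written 5′ to 3′ on the gene's own strand. The windows are chrX:150547167-150547416 (+ strand) for Alas2, chr8:84901732-84901981 (+ strand) for Klf1, chr9:21963577-21963826 (- strand) for Epor, chr11:32276350-32276599 (+ strand) for Hba-x and chr7:103853208-103853457 (- strand) for Hbb-y. Capitals mark GATAA or CACCC on either strand (TTATC or GGGTG as read here).
Alas2: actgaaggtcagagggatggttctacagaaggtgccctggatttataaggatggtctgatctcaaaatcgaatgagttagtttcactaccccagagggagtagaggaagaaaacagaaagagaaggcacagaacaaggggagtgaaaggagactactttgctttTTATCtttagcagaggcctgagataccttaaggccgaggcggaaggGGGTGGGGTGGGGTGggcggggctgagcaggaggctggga
Klf1: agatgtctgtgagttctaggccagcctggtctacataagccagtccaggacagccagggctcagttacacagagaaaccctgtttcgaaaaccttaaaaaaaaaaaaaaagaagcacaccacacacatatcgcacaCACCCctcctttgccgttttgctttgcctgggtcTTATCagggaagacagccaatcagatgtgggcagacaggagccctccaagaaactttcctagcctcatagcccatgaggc
Epor: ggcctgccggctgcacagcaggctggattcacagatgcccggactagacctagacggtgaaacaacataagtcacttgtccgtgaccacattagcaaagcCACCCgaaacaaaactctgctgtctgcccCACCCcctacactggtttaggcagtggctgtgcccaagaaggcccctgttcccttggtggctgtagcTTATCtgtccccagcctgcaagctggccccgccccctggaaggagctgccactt
Hba-x: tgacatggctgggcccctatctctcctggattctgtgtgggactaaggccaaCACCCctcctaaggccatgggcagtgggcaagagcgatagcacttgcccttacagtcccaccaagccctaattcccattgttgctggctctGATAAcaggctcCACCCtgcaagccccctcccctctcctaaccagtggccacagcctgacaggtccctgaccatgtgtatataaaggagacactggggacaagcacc
Hbb-y: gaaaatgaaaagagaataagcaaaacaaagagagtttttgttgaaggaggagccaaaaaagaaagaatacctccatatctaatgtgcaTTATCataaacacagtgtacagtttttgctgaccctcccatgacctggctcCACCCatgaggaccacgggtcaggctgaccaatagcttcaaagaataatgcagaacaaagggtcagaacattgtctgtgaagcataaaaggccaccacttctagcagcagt
Sequences of this kind were matched for 7 of the 9 genes, the other two being Slc4a1 and Hbb-bh1. GATAA or its complement was present in 6 of the 7 windows, against 23.0% of the windows of 27025 genes. The window without it was that of Gata1, which is not among those shown. CACCC or its complement was present in 7 of 7, against 51.3% of all windows. Both occurred in 6 of 7, against 10.03% of all windows. No 2 marked stretches overlapped. In Alas2 the CACCC complement occurred 3 times, 30, 35 and 40 bases before the start, and the GATAA complement once, 86 bases before it. In Hba-x a GATAA lay 107 and a CACCC 95 bases before the start. These are matches of letters and do not mark sites of binding. Whether they bear on the levels below was not tested.

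All levels below are log2 of the deposited PLIER intensity plus 16, after quantile normalisation of the 11 arrays. A difference of 1 is a doubling of intensity plus 16, and levels of different probe sets are not comparable. Between groups, limma was fitted to all 45037 probe sets, and adjusted p-values are its Benjamini-Hochberg values over all of them, with 0.05 as the limit. Gene values are those of 1 probe set per gene unless another is named.

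Some arrays stood apart before any gene was considered. The brighter Gata4 probe set, the targeted gene, averaged 9.43 ± 0.11 on the CKO-labelled arrays (SD, n = 5), 9.31 ± 0.097 on the double heterozygous arrays (n = 3) and 8.98 ± 0.19 on the control arrays (n = 3). It was thus higher where the label says the gene was deleted (limma adjusted p = 0.0321). The dimmer Gata4 probe set differed from control by 0.08 (limma adjusted p = 0.958). It measured 8.81, 6.42, 8.65, 8.44 and 8.26 on CKO-labelled arrays and 7.98, 7.98 and 8.15 on control arrays. Each CKO-labelled array other than replicate 2 was thus above every control array. No source used here says whether the probes lie in the deleted part. Nkx2-5, the gene that carries Cre, averaged 9.34 ± 0.34 on CKO-labelled arrays (n = 5), 9.48 ± 0.097 on double heterozygous arrays (n = 3) and 9.87 ± 0.055 on control arrays (n = 3), a difference of CKO-labelled from control of -0.53 (adjusted p = 0.099). The groups are named by their labels, as CKO-labelled. CKO-labelled replicate 2 had a 3′ minus 5′ actin difference of 1.0, against 0.295 to 0.45 on the other arrays. The dimmest array was CKO-labelled replicate 3, whose deposited intensities averaged 117.15, against 166.43 to 175.6 elsewhere. For the probe set representing each of the 9 genes, differences from control are given with and without both where leaving them out moved a value by over 1.5 times or changed a call. Differences of genes outside the 9 are given on all arrays only, and their dependence on these arrays is not shown.

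None of the 9 erythroid genes passed the test between genotype groups, and all 9 had a higher mean on the CKO-labelled arrays than on the control arrays, though the 3 globins had a lower mean without normalisation or with median centring. Of the 15 probe sets, 0 passed the test for CKO-labelled against control, where 1.4% of all probe sets passed (0.837% higher and 0.566% lower). The smallest adjusted p among them was 0.292 in limma. At an unadjusted p under 0.05, 4 of 15 passed, against 13.2% of all probe sets. The CKO-labelled and control levels overlapped for all 15, while 9.73% of all probe sets did not overlap. The mean was higher in 15 of 15, against 48.5% of all probe sets, and the median gene difference was 0.23, against -0.02 over all genes.

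**Figure D1:**
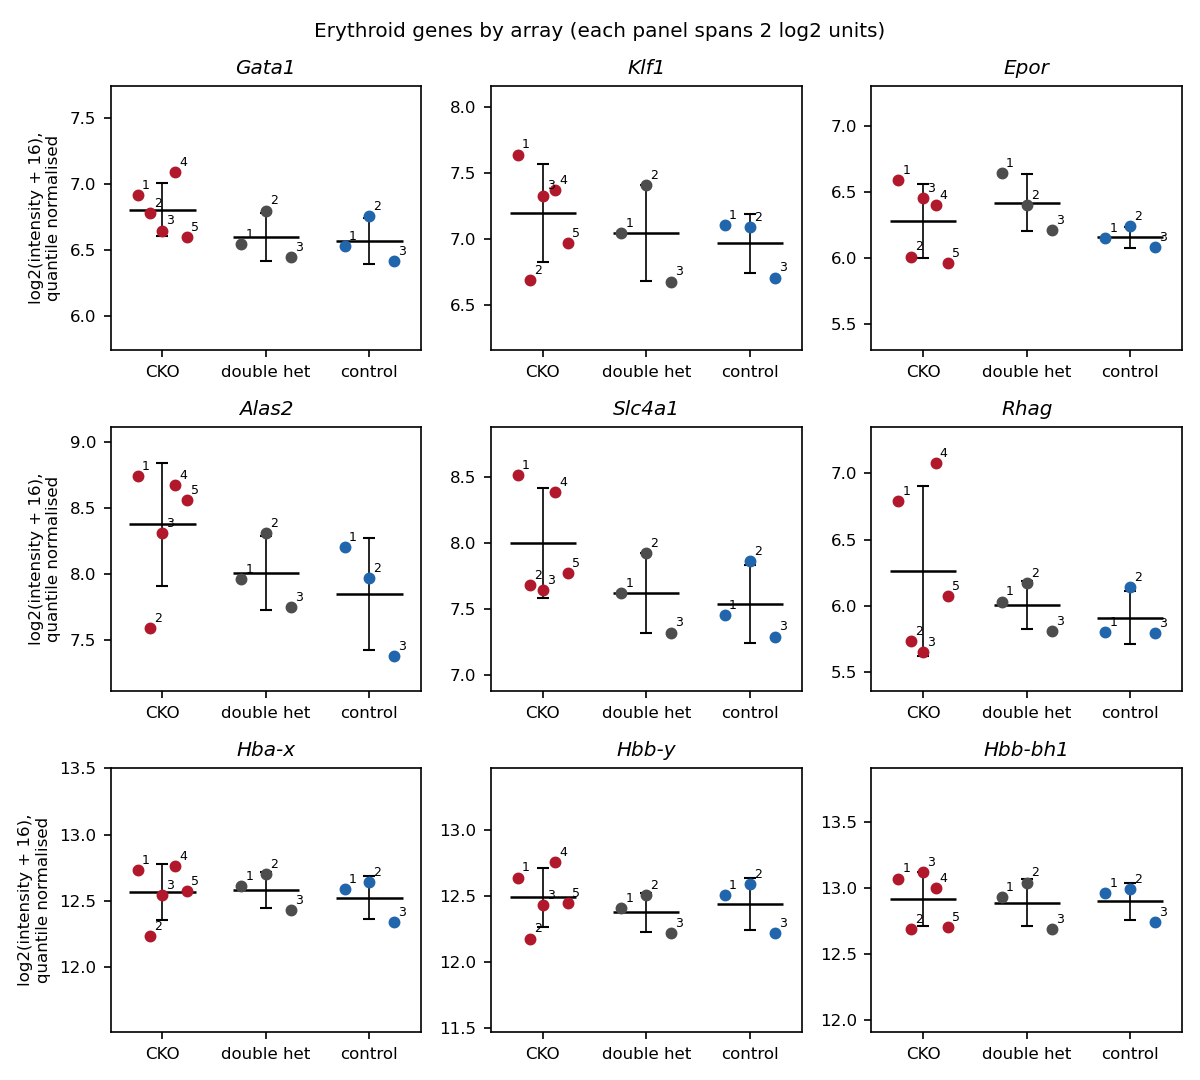
Log2 levels of the 9 erythroid genes, 1 panel per gene, with the vertical axis in log2(intensity + 16). Points are single arrays with their replicate number, CKO-labelled (CKO) on the left, then double heterozygous, then control, and bars mark group means with SD. Points of the 3 groups overlap in every panel.

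The transcription factors and the receptor come first. Gata1, the zinc-finger factor required for erythroid maturation, measured 6.92, 6.78, 6.65, 7.09 and 6.60 on CKO-labelled arrays 1 to 5. It measured 6.55, 6.80 and 6.45 on double heterozygous arrays and 6.53, 6.76 and 6.42 on control arrays. CKO-labelled arrays 1, 2 and 4 lay above all 3 control arrays, and the groups overlapped. Its mean exceeded control by 0.24 (SE 0.14, limma adjusted p = 0.522), and exceeded double heterozygous by 0.20 (adjusted p = 0.606).

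Klf1, which activates globin genes through CACCC boxes, measured 7.64, 6.69, 7.33, 7.37 and 6.97 on CKO-labelled arrays. It measured 7.05, 7.41 and 6.68 on double heterozygous arrays and 7.11, 7.09 and 6.71 on control arrays. The lowest array of each group fell within 0.03 of the others, at 6.69, 6.68 and 6.71. Against control the difference was 0.23 (SE 0.20, limma adjusted p = 0.698), and 0.36 (adjusted p = 0.395) without CKO-labelled replicates 2 and 3.

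Epor, the erythropoietin receptor, measured 6.59, 6.01, 6.45, 6.40 and 5.96 on CKO-labelled arrays. It measured 6.64, 6.40 and 6.21 on double heterozygous arrays and 6.15, 6.24 and 6.08 on control arrays. Of the CKO-labelled arrays, 3 were above all controls and 2 were below all of them. Its means were 6.28 ± 0.28 on CKO-labelled arrays (SD, n = 5), 6.42 ± 0.22 on double heterozygous arrays (n = 3) and 6.15 ± 0.081 on control arrays (n = 3). Its mean was highest in the double heterozygous hearts, which was otherwise so only for Hba-x, by 0.01. Epor there differed from control by 0.26 (SE 0.18, limma adjusted p = 1).

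Alas2, the erythroid first enzyme of haem synthesis, had the largest difference among the members. It measured 8.74, 7.59, 8.31, 8.67 and 8.56 on CKO-labelled arrays, 7.96, 8.31 and 7.75 on double heterozygous arrays and 8.20, 7.97 and 7.38 on control arrays. Of the CKO-labelled arrays, 4 of 5 lay above every control array, and replicate 2 lay below 2 of them. The difference from control was 0.52 (SE 0.24, 95% interval 0.02 to 1.03), a fold of 1.44, with a limma adjusted p of 0.357. Without CKO-labelled replicates 2 and 3 it was 0.80 (SE 0.18, adjusted p = 0.0263, 3 CKO-labelled arrays), the only member to pass in that fit. Against double heterozygous it was 0.37 (adjusted p = 0.575) and 0.65 without the pair (adjusted p = 0.0845). Without control replicate 3, the lowest array, the difference from control was 0.29.

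The membrane proteins come next. Slc4a1, the band 3 anion exchanger, measured 8.51, 7.68, 7.64, 8.38 and 7.77 on CKO-labelled arrays. It measured 7.62, 7.92 and 7.32 on double heterozygous arrays and 7.45, 7.86 and 7.29 on control arrays. CKO-labelled arrays 1 and 4 stood above all others, and the other 3 lay within the range of the controls. The difference from control was 0.46 (SE 0.21, limma adjusted p = 0.36), and 0.68 (adjusted p = 0.0771) without CKO-labelled replicates 2 and 3. A second probe set of Slc4a1, 1434502_x_at, gave 0.46 and tracked the first with r = 0.96 over the 11 arrays. The third, 1431743_a_at, was dim at 5.17 to 5.74, gave 0.01 and followed them weakly (r = 0.22 and 0.21).

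Rhag, the Rh-associated glycoprotein, measured 6.79, 5.73, 5.65, 7.08 and 6.07 on CKO-labelled arrays. It measured 6.03, 6.17 and 5.81 on double heterozygous arrays and 5.80, 6.14 and 5.79 on control arrays. CKO-labelled arrays 1 and 4 were above all 6 other-genotype arrays, while 2 and 3 were below all of them. Its residual SD lay at the 97.2 percentile of all probe sets, the highest of the members. Set against control, Rhag differed by 0.35 (SE 0.27, limma adjusted p = 0.649), and 0.74 (adjusted p = 0.077) without CKO-labelled replicates 2 and 3.

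The embryonic globins were among the brightest probe sets on the arrays. Their mean levels lay between the 99.77 and 99.98 percentiles, with deposited intensities of 3872 to 8729 in a table whose highest value was 10439.87. Hba-x, the embryonic zeta-like alpha chain, measured 12.73, 12.23, 12.54, 12.76 and 12.57 on CKO-labelled arrays. It measured 12.61, 12.70 and 12.43 on double heterozygous arrays and 12.59, 12.64 and 12.34 on control arrays. The CKO-labelled arrays spread most, with replicate 2 below and replicates 1 and 4 above every other array, and the groups overlapped. The difference from control was 0.04 (SE 0.11, 95% interval -0.18 to 0.27, limma adjusted p = 0.912), and 0.16 (adjusted p = 0.383) without CKO-labelled replicates 2 and 3.

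Hbb-y, the embryonic epsilon-like beta chain, measured 12.64, 12.18, 12.43, 12.76 and 12.45 on CKO-labelled arrays. It measured 12.41, 12.51 and 12.22 on double heterozygous arrays and 12.51, 12.59 and 12.22 on control arrays. Again the arrays overlapped, with a difference of 0.05 from control (SE 0.11), and 0.18 (limma adjusted p = 0.431) without CKO-labelled replicates 2 and 3. Its other two probe sets, whose names mark probes shared with other transcripts, each gave 0.16 (limma adjusted p = 0.303 and 0.292). Over the 11 arrays those probe sets followed each other with r = 0.95, but the first probe set with only r = 0.60 and 0.45.

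Hbb-bh1, the other embryonic beta-like chain, measured 13.07, 12.69, 13.12, 13.00 and 12.70 on CKO-labelled arrays. It measured 12.93, 13.04 and 12.69 on double heterozygous arrays and 12.96, 12.99 and 12.74 on control arrays. The difference from control was 0.02 (SE 0.11, 95% interval -0.21 to 0.24), and the other two probe sets gave 0.09 and 0.00. Without CKO-labelled replicates 2 and 3 the 3 probe sets gave 0.03, 0.14 and 0.13, with limma adjusted p-values of 0.549 to 0.946. The beta-like globins lie side by side on chromosome 7 and are close in sequence, so their probe sets may share signal.

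Across the 3 globins the highest and lowest arrays differed by 1.35 to 1.50 fold, against 1.59 to 2.68 fold for the other 6 genes. Whether signal near the top of the scale is compressed on these arrays was not tested. The mean over the globins was 0.04 above the control mean on CKO-labelled arrays (SD 0.20) and 0.00 on double heterozygous arrays (SD 0.16). For the other 6 genes the means were 0.32 (SD 0.35) and 0.12 (SD 0.23).

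**Figure D2:**
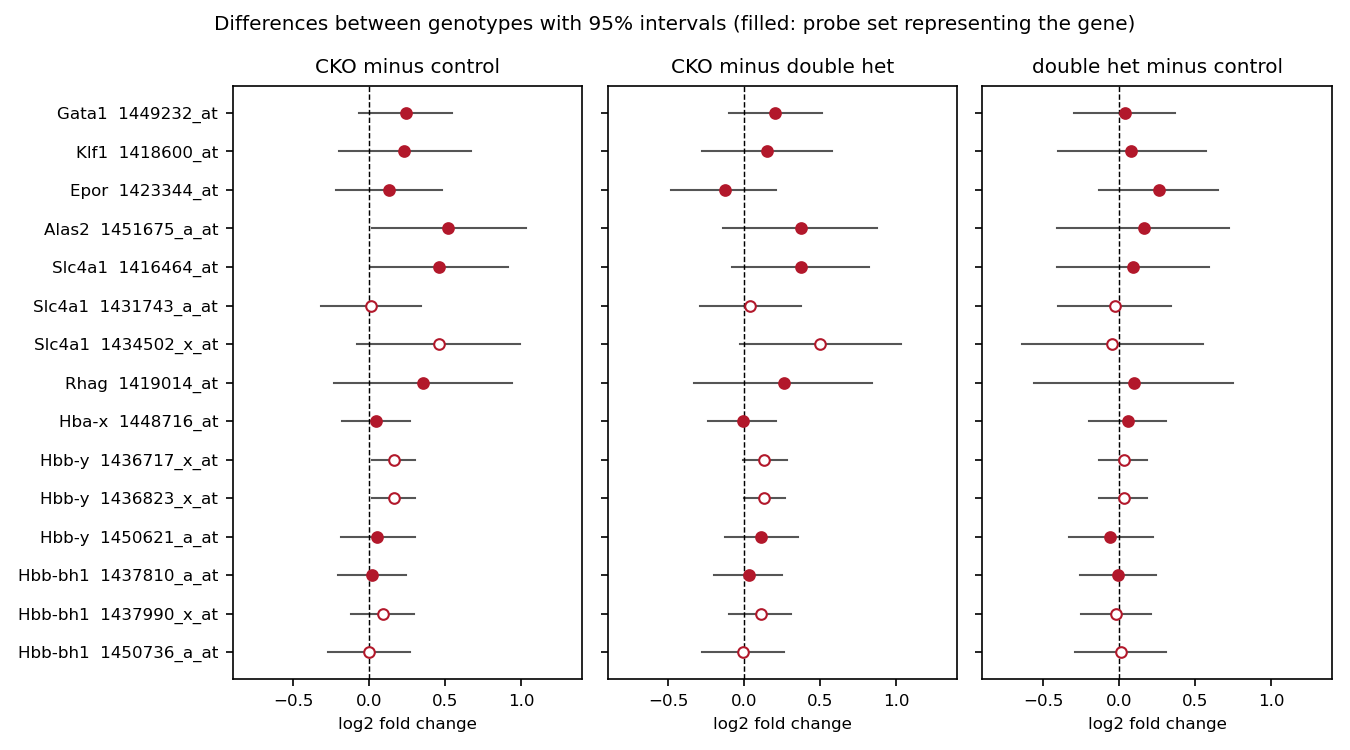
Differences between groups for the 15 probe sets of the 9 genes, on the log2 scale with 95% intervals from limma and filled points for the probe set representing each gene, for CKO-labelled minus control, CKO-labelled minus double heterozygous and double heterozygous minus control. All 15 values of CKO-labelled minus control lie at or above 0, up to 0.52, with Hba-x, Hbb-bh1 and 1 of 3 Hbb-y probe sets below 0 without normalisation or with median centring, and 0 of 15 passed the adjusted limit.

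The other comparisons separated the members less. For CKO-labelled against double heterozygous, 0 of 15 probe sets passed (0.349% of all did, 0.286% higher and 0.0622% lower). The groups overlapped for all 15, against 7.52% of all probe sets that did not overlap. Further, 0 of 15 had an unadjusted p under 0.05 (12% of all did), and 12 of 15 had a higher mean (48.8% of all did). The extremes were 0.50 for Slc4a1 (1434502_x_at) and -0.13 for Epor. For double heterozygous against control, 0 of 15 passed, in limma, as did 0% of all probe sets, and 0 of 15 had an unadjusted p under 0.05 (3.19% of all did). The groups overlapped for all 15 there too, while 10.3% of all probe sets did not overlap. Of the means 10 of 15 were higher (49.8% of all were), with differences between -0.06 for Hbb-y and 0.26 for Epor. Over all 3 groups the F test called 0 of 15, against 0.961% of all probe sets. These comparisons share arrays and are not independent of each other.

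The direction depended on how the arrays were put on one scale. Without normalisation 6 of 9 members were higher on CKO-labelled than on control arrays, with a median of 0.09 against -0.07 over all genes. With median centring 6 of 9 were higher, with a median of 0.08 against -0.08. Hba-x, Hbb-y and Hbb-bh1 turned below 0 in both.

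Much of what separated the arrays was common to the 9 genes, and it was seen within each genotype group. The genes did not move together on every array. As differences from the control mean, Alas2 was 0.71 and Epor -0.20 on CKO-labelled array 5. On array 3 Alas2 was 0.46 and Rhag -0.26, and on array 2 Gata1 was 0.21 and Hba-x -0.29. The mean over the members of the difference from the control mean was 0.53, -0.14, 0.14, 0.52 and 0.09 on CKO-labelled arrays. It was 0.11, 0.27 and -0.14 on double heterozygous arrays and 0.05, 0.16 and -0.21 on control arrays. CKO-labelled arrays 1 and 4 were the highest, and the lowest array of each group lay between -0.21 and -0.14. It averaged 0.23 ± 0.29 on CKO-labelled arrays (SD, n = 5), 0.08 ± 0.21 on double heterozygous arrays (n = 3) and 0.00 ± 0.19 on control arrays (n = 3). The difference of 0.23 between CKO-labelled and control arrays became 0.38 without CKO-labelled replicates 2 and 3, 0.15 without CKO-labelled replicate 1 and 0.12 without control replicate 3. It was 0.12 without normalisation and 0.11 with median centring.

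Within groups the same arrays were low in gene after gene. Double heterozygous replicate 3 was the lowest of its group in 9 of 9 genes, and control replicate 3 likewise in 9 of 9. CKO-labelled replicate 2 was the lowest of its group in 5 of 9 genes. The labels do not say that a replicate number links pools of different genotypes.

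**Figure D3:**
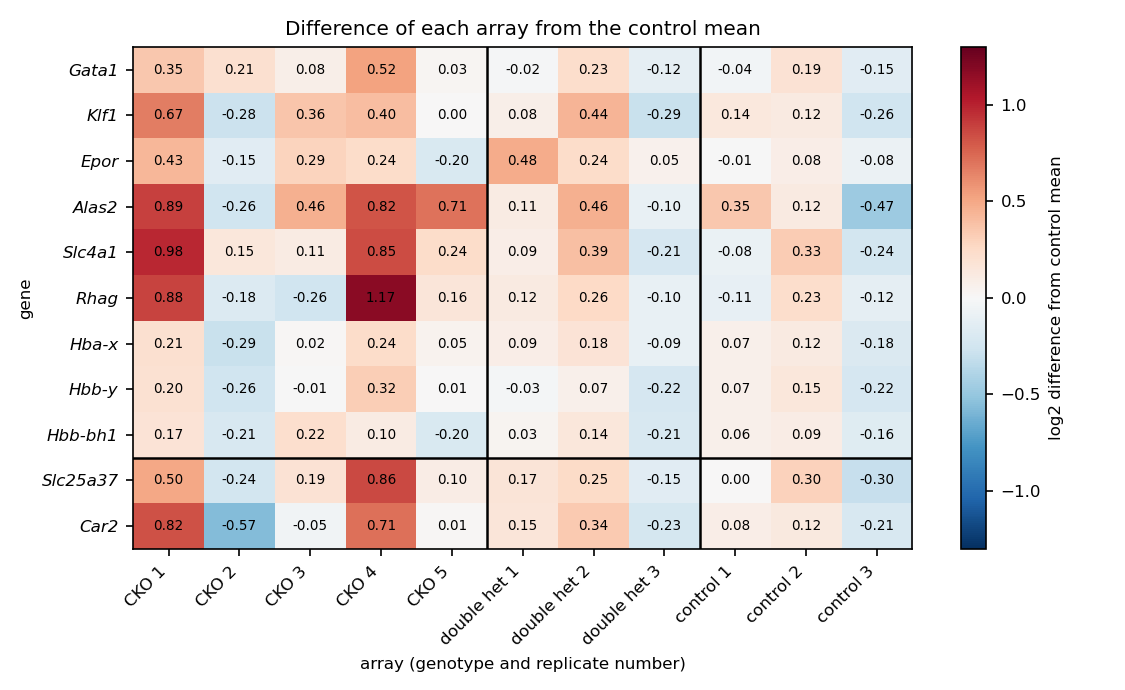
Difference of each array from the control mean for the 9 genes and, under the line, Car2 and Slc25a37 (log2), with arrays along the horizontal axis as CKO-labelled, double heterozygous and control, and colour and printed number giving the value. CKO-labelled arrays 1 and 4 are high in most genes, and control replicate 3 and double heterozygous replicate 3 are low.

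Over the 11 arrays all 36 pairs of the 9 genes were positively correlated, with Pearson r from 0.36 to 0.93 and a median of 0.72. In a permutation test with 1e+05 resamples, two-sided, 25 of 36 had an adjusted p under 0.05 over the 36, and by Spearman rank correlation 24 did. The closest pair was Hba-x and Hbb-y (r = 0.93, rho = 0.94, permutation adjusted p = 0.00108), the alpha-like and beta-like chains of embryonic haemoglobin. Slc4a1 followed Gata1 (r = 0.92, rho = 0.95, permutation adjusted p = 0.00108) and Rhag (r = 0.90, rho = 0.76, permutation adjusted p = 0.00546). Klf1 followed Hbb-bh1 (r = 0.89, rho = 0.92, permutation adjusted p = 0.00414).

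Klf1 passed in 8 of its 8 pairs and Epor in 3 of 8. The weakest pairs were Gata1 with Epor (r = 0.36, rho = 0.37, permutation adjusted p = 0.274) and Rhag with Hbb-bh1 (r = 0.41, rho = 0.34, permutation adjusted p = 0.218). With the 2 arrays farthest from the median of the first gene left out of each pair, all 36 stayed positive with a median r of 0.63. Gata1 with Epor was then 0.09 and Alas2 with Epor 0.10, against 0.43 on all arrays, so these weak relations rest on those arrays. Of the 25 pairs that passed on all arrays, 21 kept r over 0.5, and 4 did not. Those were Gata1 with Rhag (0.38, against 0.81 on all arrays), Gata1 with Hbb-y (0.39, against 0.72), Gata1 with Klf1 (0.48, against 0.67) and Rhag with Klf1 (0.37, against 0.66), which rest partly on the arrays left out. Without CKO-labelled replicates 2 and 3, 25 of 36 pairs passed the same test over the remaining arrays.

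The relation held inside the groups as well. On deviations from group means, all 36 pairs were positive, with r from 0.42 to 0.98 and a median of 0.76. An exact permutation test over the 4320 within-group rearrangements gave an adjusted p under 0.05 for 17 of 36 pairs, and for 12 of 36 by rank, with a smallest p of 0.000231, the smallest possible. All genes were read on the same arrays and share each pool's RNA and amplification. Pairs of other genes were not put through either permutation test, so the called counts have no background share beside them. On deviations from group means, 4.3% of 3608 brighter genes had r of at least 0.8 with the mean of the members. The median r over those genes was -0.03. The within-group test was not repeated without the CKO-labelled arrays that stood apart.

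**Figure D4:**
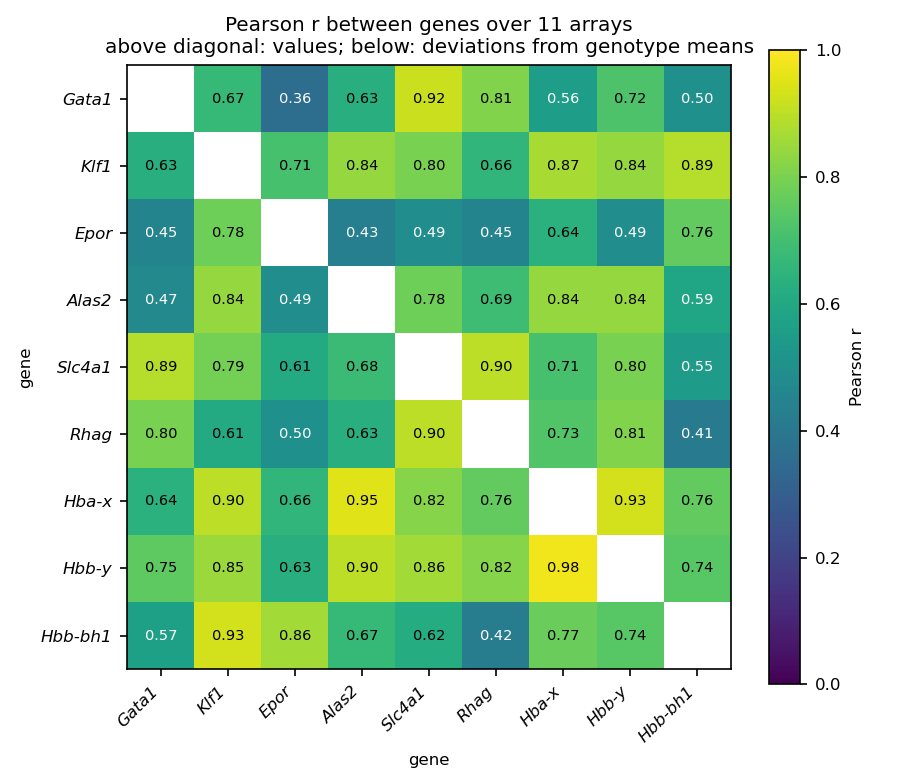
Pearson r for the 36 pairs of the 9 genes, above the diagonal over the 11 arrays and below it on deviations from group means. Values above the diagonal lie between 0.36 and 0.93, the highest for Hba-x with Hbb-y and the lowest for Gata1 with Epor.

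Other lists showed less of this. The median pair correlation was 0.36 for 14 red cell membrane and skeleton genes, 0.31 for 12 other red cell genes and 0.19 for 13 genes of haem synthesis and iron supply. It was 0.16 for 12 cardiomyocyte genes, 0.42 for 12 endothelial genes and -0.03 for 15 erythroid transcription factors and partners. On deviations from group means it was 0.45 for the membrane genes, 0.38 for other red cell genes, 0.33 for haem and iron genes, 0.27 for cardiomyocyte genes, 0.09 for endothelial genes and 0.02 for transcription factors, beside 0.76 for the members. These are descriptions of lists that differ in brightness, with no test.

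Among 3608 genes with a mean level of at least 8, those whose levels ran closest to the mean of the 9 members were Slc25a37 (r = 0.96 over 11 arrays), the mitochondrial iron importer mitoferrin-1, and Car2 (r = 0.95), the red cell carbonic anhydrase. Next were Dnajb4 (r = 0.92), Dram2 (r = 0.88), Hikeshi (r = 0.88) and Ppp1cb (r = 0.88). The median r over the genes searched was -0.08, and 17 genes, or 0.471%, had r of at least 0.8. On deviations from group means 155 genes, or 4.3%, did. In that form Slc25a37 (0.95) and Car2 (0.97) kept their place among the top 10, where Pdcd10 (0.98) and Cdc73 (0.97) led. These are descriptions from 11 arrays.

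In the wider erythroid lists 1 gene passed the test by genotype on the probe set that represents it. For CKO-labelled against control, 0 of 13 haem and iron genes, 0 of 15 erythroid transcription factors and partners, 0 of 12 other red cell genes and 0 of 10 erythropoietin pathway genes passed in limma. At an unadjusted p under 0.05, 3 haem and iron genes and 1 gene of each of the other lists did, against 13.2% of all probe sets. Of the haem and iron genes, Abcb10 (-0.29) and Alas1 (-0.29) were lower and Tfrc (0.17) was higher. The others, Foxo3 (0.50), Mgst3 (0.33) and Pim1 (0.37), were higher. Of the probe sets not chosen to represent a gene, Prdx2 (1430979_a_at), a peroxiredoxin of red cells, was lower (-0.38, adjusted p = 0.0263), where its representing probe set gave -0.04 (adjusted p = 0.885). A further Cpox probe set was higher (0.86, adjusted p = 0.00164). Of 14 membrane and skeleton genes 1 passed, Slc2a1 (0.36, SE 0.064, adjusted p = 0.00974), a glucose transporter that many other cells also use. Its other probe sets passed as well, 1426599_a_at (0.44, limma adjusted p = 0.000843) and 1426600_at (0.49, limma adjusted p = 0.00057). Fech, the enzyme that inserts iron into haem, measured 8.20, 6.38, 7.63, 8.48 and 7.58 on CKO-labelled arrays, 7.93, 7.90 and 7.53 on double heterozygous arrays and 7.80, 7.96 and 7.65 on control arrays. Its highest CKO-labelled array was 4, as for Rhag, and its lowest was 2, the array with the high 3′ minus 5′ actin difference. Another Fech probe set, 1418699_s_at, measured 8.18 on array 2, against 8.55 to 8.94 on the other CKO-labelled arrays. A probe set of the cardiac gene Myh6, 1417729_at, was also low on array 2, at 6.40 against 8.65 to 9.43. The cause of the low values was not tested.

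Markers of other cell types were read on the same arrays. Of 12 endothelial genes, 4 were higher on CKO-labelled than on control arrays and 1 was lower (limma), against 0.837% and 0.566% of all probe sets. The higher ones were the VEGF receptors Flt1 (0.98, adjusted p = 0.00444) and Kdr (0.68, adjusted p = 0.00678), the transcription factor Sox17 (0.92, adjusted p = 0.00418) and the cadherin Cdh5 (0.63, adjusted p = 0.0189). The lower one was the angiopoietin receptor Tek (-0.65, adjusted p = 0.0015). Among other probe sets of the genes called higher, that of Sox17 passed as well (1.32, limma adjusted p = 0.000566). Those of Flt1 gave 0.45, 0.70 and 0.17 and that of Cdh5 gave 0.09, and none of these passed (limma adjusted p = 0.161 to 0.932). The mean over all 12, as a difference from the control mean, was 0.26 to 0.46 on CKO-labelled arrays, -0.02 to 0.13 on double heterozygous arrays and -0.06 to 0.04 on control arrays. The endothelial values did not overlap between CKO-labelled and control arrays, and the erythroid values did, with no test of that contrast. The mean over the 12 cardiomyocyte genes lay between -0.09 and 0.05 on CKO-labelled arrays and between -0.01 and 0.02 on control arrays. Of those genes 1 passed, the myosin heavy chain Myh7 (0.27, limma adjusted p = 0.0154), while Nkx2-5 had -0.53 (adjusted p = 0.099) and Tnni1 -0.24 (adjusted p = 0.0732). Of 8 blood progenitor genes, 7 had a higher mean on CKO-labelled than on control arrays, against 48.5% of all probe sets, and 0 passed. At an unadjusted p under 0.05, 3 did, against 13.2% of all probe sets. Those were Cd34 (0.42), Hhex (0.31) and Cd93 (0.23). Kit (0.30), Gata2 (0.25), Runx1 (0.25) and Mecom (0.19) were not among them, and Spn was lower (-0.14). Which cells these RNAs came from was not tested. The median difference of the 8 genes was 0.25, beside 0.23 for the 9 erythroid genes, and the lists were not tested against each other. The mean over the 8 progenitor genes was 0.07 to 0.33 on CKO-labelled arrays and -0.04 to 0.06 on control arrays. These ranges nearly met, at 0.07 for CKO-labelled replicate 3 and 0.06 for control replicate 3. On double heterozygous arrays the progenitor mean was 0.04 to 0.08, which overlapped both other groups. Macrophage and leukocyte genes (12), megakaryocyte and platelet genes (8) and foregut and liver genes (12) had 0 called. Whether the share of endothelium bears on the erythroid values was not tested.

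**Figure D5:**
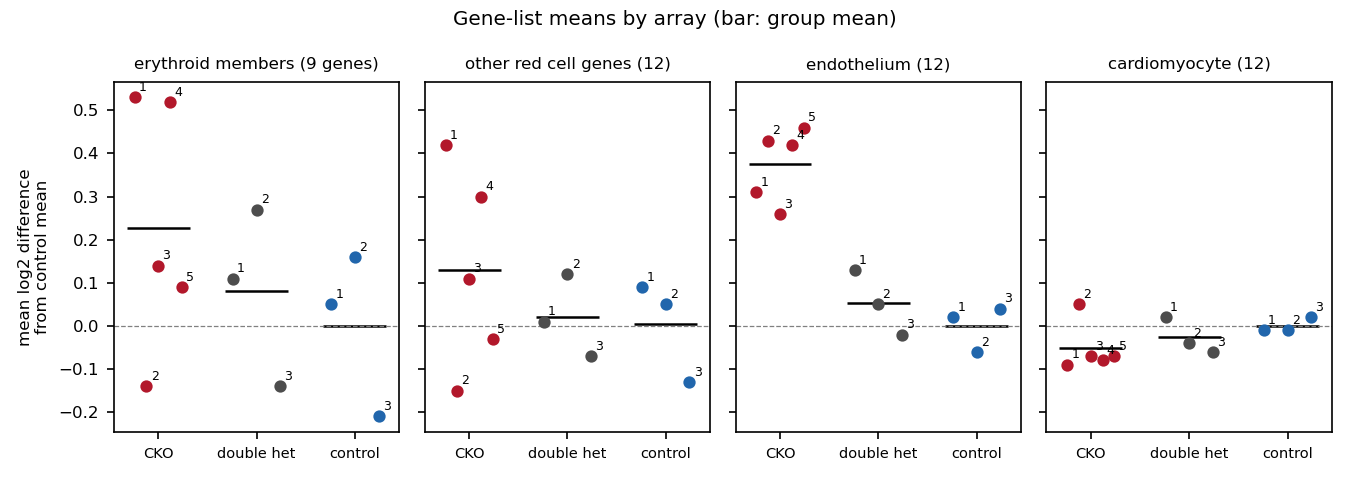
Mean log2 difference from the control mean for the 9 erythroid genes, 12 other red cell genes, 12 endothelial and 12 cardiomyocyte genes, 1 numbered point per array for CKO-labelled, double heterozygous and control arrays, with bars at group means. The endothelial list lies at 0.26 to 0.46 on CKO-labelled arrays, above its control values of -0.06 to 0.04, while the 9 erythroid genes range from -0.14 to 0.53 on CKO-labelled arrays and from -0.21 to 0.16 on control arrays.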

How the data were processed

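Pooled hearts of embryonic day 9.5 were measured on 11 one-colour arrays. The deposited values are probe set intensities made with PLIER, per the submitters' processing notes, with no version or scaling step named in them. Genes were named from the platform annotation, where 34945 probe sets had 1 symbol, 932 several and 9160 none. After 64 control probe sets were removed, log2(intensity + 16) was quantile normalised, and limma 3.58.1 in R 4.3.3 was fitted with 1 coefficient per group and a mean-variance trend, on 5 CKO-labelled, 3 double heterozygous and 3 control arrays. Benjamini-Hochberg adjustment was over 45037 probe sets. Each gene is represented by its brightest probe set, passing over those marked as shared where another exists. Correlations used Python 3.11.15 and scipy 1.17.1. The code was tested on simulated data. Members and gene lists were chosen with earlier results of these data known. Beyond the members, the rule named up to 4 genes of each list with the smallest p in a comparison and the 10 genes closest in pattern; Fech was chosen after its values were seen. Alternatives were the deposited scale, median centring, offsets of 1 and 64, a filter on means under 6, no trend, ordinary variances, array weights, a replicate block, 2 groups only and leaving out arrays. The number of arrays limits the precision.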

Additional observations from a re-analysis of the deposited data

Results flagged for a closer look

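Among the 5 CKO-labelled arrays, replicate 2 was far below the others for Hbb-y (1436717_x_at), at 12.69 against 12.89 to 12.96. It was found by Dixon's test (critical value 0.71), which was applied to 15 probe sets and gave 1; chance alone gives about 1 in 20. The same array had the high 3′ minus 5′ actin difference of 1.0, and its part in the low value was not tested.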

How the results depend on the processing

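Without the 2 doubtful CKO-labelled arrays (replicates 2 and 3), or with array weights, Alas2 passed for CKO-labelled against control, at 0.80 and 0.70 (limma adjusted p = 0.0263 and 0.0411), so 1 of 15 member probe sets was called instead of 0. Over the 987 alternative values of single probe sets, 902 kept their direction and side of the limit, and 83 changed sign; those had a reported size of at most 0.16 and an adjusted p of at least 0.58. The sign changes for CKO-labelled against control were as follows. On the deposited scale Hba-x was -0.05, Hbb-y (1450621_a_at) -0.06 and Hbb-bh1 -0.09, -0.01 and -0.11. With median centring they were -0.06, -0.07 and -0.09, -0.02 and -0.12. With the replicate block Hba-x and Hbb-y were -0.02 each and Hbb-bh1 (1450736_a_at) was -0.04. With array weights Slc4a1 (1431743_a_at) was -0.01 and Hbb-bh1 0.00. For CKO-labelled against double heterozygous, median centring gave Klf1 0.00, Hbb-y -0.03 and Hbb-bh1 -0.11 and 0.00, and the deposited scale gave Hbb-bh1 -0.06. Array weights gave Hba-x 0.05 and Hbb-bh1 0.03, and leaving out CKO-labelled replicates 2 and 3 gave 0.11 and 0.12. For double heterozygous against control, Hbb-y was -0.01 and -0.02 and Hbb-bh1 -0.02 on the deposited scale, Hbb-bh1 0.02 with median centring, and Gata1 0.00 and Hbb-bh1 -0.01 with array weights.

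Leaving out 1 array at a time gave these ranges, from lowest to highest, where a sign changed. CKO-labelled minus control ranged from -0.09 to 0.05 for Slc4a1 (1431743_a_at), -0.05 to 0.13 for Hba-x, -0.06 to 0.13 for Hbb-y and -0.06 to 0.07 and -0.10 to 0.08 for Hbb-bh1. CKO-labelled minus double heterozygous ranged from -0.06 to 0.09 for Slc4a1 (1431743_a_at), -0.03 to 0.33 for Klf1, -0.09 to 0.07 for Hba-x and -0.07 to 0.10 and -0.11 to 0.07 for Hbb-bh1. Double heterozygous minus control ranged from -0.08 to 0.33 for Alas2, from -0.06 to 0.26, -0.11 to 0.01 and -0.23 to 0.13 for Slc4a1, -0.06 to 0.13 for Gata1, -0.10 to 0.26 for Klf1 and -0.03 to 0.14 for Hba-x. It ranged from -0.02 to 0.07, -0.02 to 0.05 and -0.17 to 0.02 for Hbb-y, and from -0.09 to 0.09, -0.09 to 0.05 and -0.09 to 0.11 for Hbb-bh1. The cause of these changes was not tested.

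The background counts moved more. For CKO-labelled against control, 632 probe sets became 92 on the deposited scale, 362 with median centring, 1002 with a filter on means under 6, 281 without a trend, 296 without moderation, 2393 with array weights, 265 with the replicate block, 1362 without CKO-labelled replicates 2 and 3, 263 with 2 groups only, and 168 to 897 leaving out 1 array. For CKO-labelled against double heterozygous, 157 became 15, 65, 259, 53, 1, 613, 65, 650, 61 and 15 to 415 in the same order. Double heterozygous against control gave 8 with array weights, 2 without the doubtful pair and 1 with 2 groups only. The F test's 433 became 81, 284, 687, 198, 122, 1599, 157, 885 and 185 to 653, with no value for 2 groups. The number of called member pairs was 32 without normalisation and 23 after median centring. Replicate numbers were checked as a pairing. Over all probe sets, deviations of same-numbered arrays correlated at -0.06 to 0.15, and over the members at -0.61 to 0.75, the highest between double heterozygous and control replicates 3. They are not treated as pairs, and the block left 0 of 15 members called. The mean member difference of CKO-labelled from double heterozygous, 0.15, was 0.07 without normalisation, 0.02 with median centring and 0.30 without CKO-labelled replicates 2 and 3. Leaving out 1 array gave 0.04 to 0.24. That of double heterozygous from control, 0.08, ranged from -0.03 to 0.19, at -0.03 without control replicate 3 and -0.02 without double heterozygous replicate 2. Signal over background could not be judged, since detection calls were not used here.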

Other observations

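The adult globins were read next to the embryonic ones. Hbb-b2, an adult beta chain, has a probe set (1427866_x_at) shared with other transcripts that measured 10.76, 8.12, 9.32, 11.85 and 10.33 on CKO-labelled arrays. It measured 9.18, 9.28 and 9.74 on double heterozygous arrays and 9.42, 8.81 and 8.15 on control arrays. The highest and lowest arrays differed by 13.3 fold, against at most 2.74 fold for the member probe sets, and the difference of CKO-labelled from control was 1.28 (SE 0.57, limma adjusted p = 0.346). The other Hbb-b2 probe set gave 0.84 (adjusted p = 0.344). The adult alpha chains had lower means on CKO-labelled than on control arrays, Hba-a2 by -0.30 (adjusted p = 0.581) and Hba-a1 by -0.04 (adjusted p = 0.964). Thus 1 of the 3 adult globin genes measured had a higher mean. Both alpha probe sets were dim, at 4.21 to 5.24 for Hba-a2 and 4.85 to 5.67 for Hba-a1, where the lowest possible level is 4. Whether they rose above background could not be judged, so little can be read from their direction. Among the Hbb-b2 probe sets, CKO-labelled arrays 4 and 1 were the highest in the first, and array 5 in the second.

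Cpox, the coproporphyrinogen oxidase of haem synthesis, has probe sets that differed. 1422493_at measured 8.78, 8.64, 8.38, 8.68 and 8.64 on CKO-labelled arrays, 8.27, 7.88 and 8.05 on double heterozygous arrays and 7.72, 7.95 and 7.63 on control arrays. CKO-labelled and control arrays did not overlap there (difference 0.86, SE 0.12, limma adjusted p = 0.00164). The brighter probe set 1422492_at gave 0.14 (adjusted p = 0.826) and overlapped. Both were singled out after their values were seen.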
